A study of Pimephales promelas with 16 samples.

Results

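The transcripts described here are the 100 probes that were higher in fathead minnow (Pimephales promelas) ovary explants after flutamide and after LIN, while DHT stayed near the control. They were chosen by their measured levels. A probe had to be well above background on all 16 arrays of the series, which 11144 of the 15208 probes were. Its DHT mean had to lie within 0.3 of its control mean on the log2 scale, which left 8226 candidates. These were ranked by separation, the lower of the flutamide and LIN means minus the higher of the control and DHT means, and the first 100 were taken. Since every difference between the 4 groups went into that choice, such differences are given here as a description and support nothing.

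The explants came from female fish and were kept for 12 h without an added compound named in the labels (control) or with DHT, flutamide or LIN, each at 1e-06 M, with 4 arrays per group. LIN is read as linuron, the herbicide in the series title. The labels do not say whether the control received a carrier, or whether replicates came from separate fish, so p-values reflect only how far these samples varied, which may be technical. An explant holds every cell type of the ovary, and fewer cells of a type cannot be told apart from less RNA per cell. The replicates are numbered 1, 3, 4 and 6 in the control, 1, 4, 5 and 6 with DHT, 2, 3, 5 and 6 with flutamide, and 3, 4, 5 and 6 with LIN, and values below are listed in that order.

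In the ovary of fish, theca cells make androgens and granulosa cells convert part of them to oestradiol, which drives the growth of oocytes through yolk proteins from the liver. Androgens act through the androgen receptor, a transcription factor that binds DNA once it holds hormone. DHT, dihydrotestosterone, activates that receptor and cannot be converted to oestrogen by aromatase. Flutamide is a drug whose hydroxylated form blocks the receptor. Linuron is a urea herbicide that binds the androgen receptor as a weak antagonist and lowers testosterone production in rats. A transcript higher with both antagonists and near control with the agonist belongs to the comparison that the series title poses, of what flutamide and linuron share.

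In the deposited files a probe has an identifier and the name of a contig or sequence, and no gene is paired with it. The identifiers and contig names of the 100 probes were looked up as text in the RefSeq gene table of assembly fPimPro1.hap1.1, and 0 matched. No sequence was compared, so this does not show that the probes lack an annotated gene. No gene, function, pathway or genome position is therefore given, and the labelled tissue could not be checked against ovary markers. The probes are called by their contig. All 100 carry different names: 77 begin with FJU, 7 with FJU_SB and 15 with gi, and 1 has another form. Among all probes well above background these 3 prefixes made up 79.5%, 4.31% and 16.0%.

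Levels are log2 ratios of a probe's processed signal to its array's 75th percentile, so 0 is the brightness of the probe at that percentile. Signal at that percentile lay between 921 and 3418, and from 80.9% to 87.8% of an array's probes passed the scanner software's background test. The 16 arrays lay on 3 slides. Slide 1 held control replicate 1, DHT replicates 1 and 4, flutamide replicates 3 and 5, and LIN replicates 3 and 4. Slide 2 held control replicate 3 and flutamide replicate 2. Slide 3 held control replicates 4 and 6, DHT replicates 5 and 6, flutamide replicate 6, and LIN replicates 5 and 6. Slide 1 was scanned on a different day from slides 2 and 3. In the deposited files 2 numbers follow the slide's barcode. The second, from 1 to 4, is called the position here, and it ran almost in parallel with the groups. The first number is not considered here. Arrays of 1 slide can share a position, as control replicate 1 and DHT replicate 4 do on slide 1. All 4 control arrays lay at position 1. DHT replicate 4 lay at position 1 and the other 3 DHT arrays at position 2. All 4 flutamide arrays lay at position 3. LIN replicates 3, 5 and 6 lay at position 4, and LIN replicate 4 lay at position 2. DHT replicate 4 and LIN replicate 4 are thus the exceptions. No flutamide array and no other LIN array shares a position with a control or DHT array, and for those 7 arrays compound and position cannot be told apart.

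The 100 probes were higher with flutamide by 0.56 to 2.27 log2 units over control, with a median of 0.97 (1.96-fold). With LIN they were higher by 0.55 to 1.63, with a median of 0.89 (1.85-fold). DHT minus control ran from -0.29 to 0.29, with a median of 0.09. The median 95% confidence interval of a single probe reached 0.97 to either side of its flutamide or LIN difference. At least a 2-fold difference was seen for 47 probes with flutamide, for 31 with LIN and for 24 with both. Over all 13146 probes kept for the fit the median difference was -0.09 with flutamide and -0.11 with LIN.

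Separation ran from 1.63 at the first probe through a median of 0.71 to 0.539 at the last, and the next probe reached 0.538, so the limit at 100 marks no gap. Of the 8226 candidates, 1772 (21.5%) had a separation above 0.

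Summed up per array as the median of the 100 probes after subtracting each probe's control mean, the control arrays gave -0.12, 0.50, -0.07 and -0.28. The DHT arrays gave -0.27, 0.12, 0.30 and 0.26. The flutamide arrays gave 1.04, 1.18, 1.09 and 0.76, and the LIN arrays 1.59, 0.17, 0.93 and 0.90. Every flutamide array stood above all 8 control and DHT arrays. LIN replicate 4 did not: at 0.17 it lay within the range of the control and DHT arrays, and it is the LIN array at position 2. The group means were 0.01 ± 0.34 for control, 0.10 ± 0.26 for DHT, 1.02 ± 0.18 for flutamide and 0.90 ± 0.58 for LIN (SD, n = 4 arrays each). Without LIN replicate 4 the LIN mean was 1.14 ± 0.39 (SD, n = 3 arrays). Over all probes well above background the medians of the 16 arrays stayed between -0.19 and 0.10.

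Single probes repeated this. LIN replicate 4 was the lowest LIN array for 64 of the 100 probes, and LIN replicate 3 was the highest for 66. Among the controls, replicate 3 was the highest for 57. LIN replicate 4 was above all 8 control and DHT arrays for 20 of the 100 probes, against 50 to 78 for the other LIN arrays and 45 to 74 for the flutamide arrays. For all probes well above background the share of probes above all 8 was 7.82% in LIN replicate 4, 8.40% to 13.7% in the other LIN arrays and up to 14.2% in the flutamide arrays.

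All 4 flutamide arrays were above all 4 controls for 27 of the 100 probes (2.14% of all probes well above background), and all 4 LIN arrays were above all 4 controls for 16 (1.12% of all). All 8 flutamide and LIN arrays were above all 8 control and DHT arrays for 5 of the 100 (0.0538% of all, which is 6 probes). Sorted by slide position instead, all 7 arrays at positions 3 and 4 were above all 9 at positions 1 and 2 for 10 of the 100 (0.233% of all). The rule used these levels, so nothing is read from these counts beyond how many probes separate without overlap. The part of slide position in them was not tested.

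The 5 probes without overlap were FJU.12675.C2, FJU.5477.C2, FJU.190.C5, FJU.7137.C1 and FJU.7161.C1, the last pair named after their values were seen. The levels of FJU.12675.C2 (probe UF_Ppr_AF_103609) were -5.49, -5.20, -5.36 and -5.85 in the controls and -5.70, -5.23, -5.22 and -5.10 with DHT. With flutamide FJU.12675.C2 gave -4.42, -4.30, -4.41 and -4.75, and with LIN -3.67, -4.89, -4.43 and -3.81. These levels came to -5.48 ± 0.28 in the control, -5.31 ± 0.27 with DHT, -4.47 ± 0.19 with flutamide and -4.20 ± 0.57 with LIN (SD, n = 4). It was 2.01-fold over control with flutamide and 2.42-fold with LIN, and its LIN replicate 4 was the lowest of the LIN arrays. FJU.5477.C2 (probe UF_Ppr_AF_113866) read -1.03, -1.0, -0.42 and -1.04 in the controls and -0.95, -0.88, -0.62 and -0.52 with DHT. Its levels were 0.60, -0.37, 0.19 and 0.50 with flutamide and 0.41, -0.34, -0.10 and 0.08 with LIN. The highest control, replicate 4, came closest to the compound arrays, and the flutamide and LIN folds were 2.15 and 1.85. For FJU.190.C5 (probe UF_Ppr_AF_105181) the controls gave -0.87, -0.27, -0.26 and -0.75, and DHT gave -1.14, -0.29, -0.10 and -0.27. The flutamide levels of FJU.190.C5 were 0.34, -0.03, 0.45 and 0.33, and the LIN levels 0.64, 0.05, 0.36 and 0.53. This was among the steadiest of the 100, with a pooled SD within groups of 0.33, and it was 1.75-fold over control with flutamide and 1.91-fold with LIN. The levels of FJU.7137.C1 (probe UF_Ppr_AF_113906) were -3.71, -2.66, -3.16 and -3.26 in the controls and -3.67, -2.66, -2.75 and -3.06 with DHT. With flutamide FJU.7137.C1 gave -1.25, -1.19, -2.21 and -2.17, and with LIN -1.11, -2.56, -2.45 and -1.98. LIN replicate 4 was again the lowest of the LIN arrays and cleared the highest control and DHT values by little. FJU.7161.C1 (probe UF_Ppr_AF_101133) read -3.57, -2.93, -3.10 and -3.62 in the controls and -3.29, -2.89, -2.99 and -3.01 with DHT. Its levels were -2.03, -2.31, -2.51 and -2.22 with flutamide and -1.51, -2.79, -2.37 and -1.87 with LIN. The same order held, with LIN replicate 3 the highest of all arrays and LIN replicate 4 the lowest with a compound.

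FJU.271.C2, FJU.728.C8 and FJU.13041.C1 were among the 10 probes that separated by slide position, and they did not separate by group. The levels of FJU.271.C2 (probe UF_Ppr_AF_108930) were 0.73, 0.79, 0.48 and 0.71 in the controls and 0.60, 0.85, 1.04 and 0.93 with DHT. With flutamide FJU.271.C2 gave 2.45, 2.14, 2.19 and 2.24, and with LIN 3.05, 0.84, 1.79 and 1.88. The flutamide arrays were tight at 2.26 ± 0.14 (SD, n = 4) and 2.99-fold over control, whereas LIN replicate 4 lay within the DHT range and LIN replicate 3 was the highest of all arrays. FJU.728.C8 (probe UF_Ppr_AF_109988) read 2.04, 2.03, 2.04 and 1.66 in the controls and 1.80, 2.44, 2.41 and 2.0 with DHT. Its levels were 3.07, 3.15, 3.35 and 3.17 with flutamide and 3.80, 2.38, 3.10 and 2.88 with LIN. LIN replicate 4 lay just below the highest DHT array, and the other 7 compound arrays lay above all the rest. The folds of FJU.728.C8 over control were 2.37 with flutamide and 2.14 with LIN. For FJU.13041.C1 (probe UF_Ppr_AF_108353) the controls gave -1.77, -0.40, -1.38 and -1.14, and DHT gave -1.54, -1.07, -0.90 and -0.52. The flutamide levels of FJU.13041.C1 were -0.27, 0.10, 0.21 and 0.38, and the LIN levels 0.75, -1.12, 0.28 and 0.75. LIN replicate 4 lay within the range of the controls, and control replicate 3 was the highest control. FJU.13041.C1 was 2.42-fold over control with flutamide and 2.53-fold with LIN.

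In 2 bright probes control replicate 3 and LIN replicate 3 were both the highest of their groups. The levels of FJU.1003.C1 (probe UF_Ppr_AF_115134) were 0.31, 2.97, 0.68 and 0.81 in the controls and 0.45, 1.21, 1.90 and 2.18 with DHT. With flutamide FJU.1003.C1 gave 2.98, 3.08, 2.87 and 2.24, and with LIN 3.88, 1.20, 2.74 and 3.26. Control replicate 3 reached the flutamide range, and LIN replicate 4 lay within the range of the controls. FJU.1003.C1 was 3.03-fold over control with flutamide and 2.99-fold with LIN. FJU.1875.C1 (probe UF_Ppr_AF_101394) read 1.95, 2.61, 1.28 and 0.80 in the controls and 1.49, 1.24, 1.82 and 1.51 with DHT. Its levels were 2.68, 3.39, 3.09 and 2.28 with flutamide and 3.25, 1.99, 2.68 and 2.29 with LIN. The control range overlapped both the flutamide and the LIN range, and the folds over control were 2.30 with flutamide and 1.86 with LIN.

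The largest pooled SDs within groups were those of FJU.666.C3, which also had the largest separation of the 100, and FJU.13414.C1. The levels of FJU.666.C3 (probe UF_Ppr_AF_118731) were -1.39, 4.26, 4.96 and 5.11 in the controls and -2.73, 5.95, 4.37 and 5.22 with DHT. With flutamide FJU.666.C3 gave 5.13, 4.96, 4.72 and 5.55, and with LIN 4.21, 5.39, 4.57 and 5.30. FJU.666.C3 was the brightest of the 100, and 14 of its 16 levels lay between 4.21 and 5.95. The exceptions were control replicate 1 and DHT replicate 1, and no flutamide or LIN array carries number 1. FJU.13414.C1 (probe UF_Ppr_AF_115428) read -3.11, 0.27, -5.66 and 0.16 in the controls and -3.14, -5.47, 0.11 and 0.10 with DHT. Its levels were 0.16, 0.26, 0.26 and 0.03 with flutamide and -0.17, -5.52, 0.25 and 0.25 with LIN. Its low levels all had the number 1 or 4 and occurred in the control, DHT and LIN groups alike. No flutamide array has either number, and that group's SD was 0.11 against 2.72 to 2.85 in the others. For replicate number, limma's F test gave an adjusted p of 9.94e-06 for FJU.666.C3 and 9.66e-08 for FJU.13414.C1. Both probes were named for their large spread, so these p-values are a description only.

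Of the 6 probes with the largest separation, FJU.13041.C1 had a pooled SD of 0.59, below the median of 0.68 over the 100, and the other 5 had SDs from 0.94 to 2.56. FJU_SB_30.896.C1, FJU.9716.C1 and FJU.4704.C2 are among those 5, and FJU.2952.C1 had the next largest separation. For FJU_SB_30.896.C1 (probe UF_Ppr_AF_113941) the controls gave -4.27, -5.09, -7.11 and -4.37, and DHT gave -6.05, -5.79, -5.51 and -4.37. The flutamide levels of FJU_SB_30.896.C1 were -1.33, -4.28, -4.90 and -1.70, and the LIN levels -2.12, -5.13, -6.34 and -1.63. Flutamide replicates 2 and 6 and LIN replicates 3 and 6 were high, and the other compound arrays overlapped the controls. The levels of FJU.9716.C1 (probe UF_Ppr_AF_111662) were -4.19, -2.16, -4.41 and -5.18 in the controls and -3.89, -3.96, -4.17 and -3.70 with DHT. With flutamide FJU.9716.C1 gave -1.38, -2.16, -2.98 and -3.61, and with LIN -0.29, -4.07, -3.23 and -2.75. DHT was tight at -3.93 ± 0.19 (SD, n = 4), while control replicate 3 matched flutamide replicate 3. FJU.4704.C2 (probe UF_Ppr_AF_112449) read -5.16, -3.50, -4.20 and -4.25 in the controls and -5.30, -3.99, -3.90 and -3.83 with DHT. Its levels were -3.80, -2.49, -3.59 and -2.27 with flutamide and -0.98, -4.11, -3.83 and -2.76 with LIN. LIN replicate 3 was highest, and LIN replicates 4 and 5 lay within the range of the controls. For FJU.2952.C1 (probe UF_Ppr_AF_107283) the controls gave -2.74, -3.58, -5.70 and -5.14, and DHT gave -4.14, -5.56, -1.71 and -5.99. The flutamide levels of FJU.2952.C1 were -1.50, -2.10, -0.83 and -3.66, and the LIN levels -3.23, -5.01, -0.95 and -3.53. FJU.2952.C1 was 4.81-fold over control with flutamide and 2.16-fold with LIN, and DHT replicate 5 was as high as some flutamide arrays.

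Flutamide and LIN were given at the same concentration and for the same time, and the 100 probes were compared between them. The flutamide mean was higher for 64 probes and the LIN mean for 36, and this direction depended on the LIN arrays and on the scaling. Flutamide was higher for 87 probes without LIN replicate 3, for 39 without LIN replicate 4, and for 6 with spike-in centring. The median differences were 0.34, -0.15 and -0.48, against 0.07 in the reported fit. Over all 13146 probes the medians were 0.07, 0.08 and -0.51, against 0.04 in the reported fit. The share of all probes that were higher with flutamide is not given. limma called 0 of the 100 (0% of all 13146 probes), and 0 had an unadjusted p below 0.05. The 95% interval of flutamide minus LIN held 0 for all 100. It reached from 0.50 to 3.55 to either side, with a median of 0.97, so smaller differences were not detectable in this fit. Replicate number was not in this fit. With the number as a random or a fixed replicate block the median interval reached 0.65 or 0.63 to either side. Limma then called 0 and 0 of the 100. At an unadjusted p below 0.05 were 1 and 3, against 817 and 996 of all 13146 probes. The rule took the lower of the 2 means, so this comparison is not free of it. The furthest apart were FJU.13414.C1, at 1.48 ± 3.37 (95% interval), and FJU.2952.C1, at 1.16 ± 2.19, both higher with flutamide. In the other direction stood FJU.5085.C1, at -0.54 ± 0.88, and gi_73504496, at -0.49 ± 1.19.

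The levels of FJU.5085.C1 (probe UF_Ppr_AF_117273) were -3.76, -3.73, -4.36 and -4.61 in the controls and -4.34, -3.96, -4.19 and -4.11 with DHT. With flutamide FJU.5085.C1 gave -3.25, -3.23, -3.73 and -3.49, and with LIN -1.64, -3.89, -3.74 and -2.26. LIN replicates 3 and 6 were high, and LIN replicates 4 and 5 lay within the range of the controls. gi_73504496 (probe UF_Ppr_AF_111194) read -4.36, -4.83, -3.63 and -3.68 in the controls and -5.40, -2.44, -4.23 and -3.50 with DHT. Its levels were -3.03, -3.25, -4.11 and -2.81 with flutamide and -2.04, -2.74, -3.89 and -2.58 with LIN. DHT replicate 4 was the highest DHT array, and replicate 5 was the lowest array of both the flutamide and the LIN group.

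The dimmest of the 100 were gi_73491720 and FJU.12836.C1. For gi_73491720 (probe UF_Ppr_AF_105011) the controls gave -6.24, -6.25, -6.90 and -6.87, and DHT gave -5.96, -7.11, -6.13 and -6.08. The flutamide levels of gi_73491720 were -5.36, -5.99, -5.64 and -6.13, and the LIN levels -5.73, -5.86, -5.79 and -5.70. LIN was tight at -5.77 ± 0.07 (SD, n = 4) and DHT replicate 4 stood apart below the rest. The levels of FJU.12836.C1 (probe UF_Ppr_AF_102981) were -6.42, -5.50, -5.81 and -6.28 in the controls and -6.74, -6.11, -5.35 and -5.78 with DHT. With flutamide FJU.12836.C1 gave -5.81, -4.96, -4.55 and -5.83, and with LIN -4.83, -6.32, -4.94 and -4.88. LIN replicate 4 was at the level of the lowest controls and far from the other 3 LIN arrays. FJU_SB_30.572.C1 (probe UF_Ppr_AF_106018) read -5.33, -5.99, -5.47 and -6.06 in the controls and -5.76, -5.31, -5.88 and -6.28 with DHT. Its levels were -5.58, -4.81, -4.61 and -5.23 with flutamide and -4.35, -4.43, -5.11 and -5.79 with LIN. LIN replicates 3 and 4 were high, LIN replicate 6 was at the control level, and the folds over control were 1.58 with flutamide and 1.73 with LIN.

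At the limit of the choice, gi_73491720 and FJU.1369.C2 were the last taken. For FJU.1369.C2 (probe UF_Ppr_AF_103427) the controls gave -1.94, -1.51, -3.71 and -3.37, and DHT gave -2.31, -3.45, -1.40 and -2.43. The flutamide levels of FJU.1369.C2 were -2.27, -1.33, -0.65 and -2.18, and the LIN levels -1.84, -3.73, -0.15 and -1.73. Replicate 4 was the lowest array in the control, DHT and LIN groups. FJU.13406.C1 and FJU.10008.C1 were the first left out. The levels of FJU.13406.C1 (probe UF_Ppr_AF_108899) were -4.56, -4.07, -4.64 and -5.11 in the controls and -4.92, -4.51, -4.08 and -4.71 with DHT. With flutamide FJU.13406.C1 gave -4.11, -3.88, -3.28 and -4.79, and with LIN -3.77, -4.92, -3.61 and -3.72. LIN replicate 4 lay below 3 of the 4 controls. FJU.10008.C1 (probe UF_Ppr_AF_100083) read -4.12, -4.47, -4.36 and -4.68 in the controls and -4.13, -3.60, -4.60 and -4.27 with DHT. Its levels were -3.0, -3.36, -4.14 and -3.95 with flutamide and -2.34, -3.60, -4.36 and -3.71 with LIN. Neither differed in kind from the pair just inside: all 4 had compound means above control, with flutamide ranges that overlapped the control or DHT arrays.

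The 100 probes were dimmer than the probes well above background on all arrays, from which they were chosen. Probes that failed that background limit were not part of this comparison. Their median level was -2.91, against -1.68 for all probes well above background and -1.0 for the candidates, and they spanned -6.11 to 4.10. With all probes cut into 5 equal classes from the dimmest to the brightest, they numbered 22, 34, 22, 15 and 7. Spread within groups was large: the median pooled SD was 0.68 against 0.40 over all, and in 5 equal classes of rising SD they numbered 0, 4, 11, 32 and 53. The rule ranked probes by differences of means without regard to this spread. The members in the dimmest class had a median flutamide minus control of 0.93 and those of the brightest 1.24. Over all probes the same medians were -0.31 and 0.06.

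Replicate number was tested within the groups. The rule did not use the number itself, but the numbers are spread unevenly over the groups. A difference between numbers can therefore enter the group means that the rule ranked, and the test is not free of the choice. With group in the model, limma's F test called 63 of the 100 at an adjusted p below 0.05, against 51.6% of the 13101 probes with a test. The share called rose with spread in all probes, from 18.4% in the class with the smallest SD to 80.4% in the class with the largest. Of the 53 members in that last class 46 were called. In the other classes the members were called no more often than all probes: 14 of 32 against 61.3%, 3 of 11 against 53.7% and 0 of 4 against 48.9%, in order of falling SD. Deviations from the group means also ran together. Over the 4950 pairs of the 100 probes the median correlation of deviations over the 16 arrays was 0.33, with 78.6% of pairs above 0. Pairs of all probes had a median of 0.04. That comparison was not matched for spread, which was larger in the 100. The arrays furthest above their group mean were LIN replicate 3 (median 0.73, 91 probes above) and control replicate 3 (0.50, 83 probes above). The furthest below were LIN replicate 4 (-0.71, 13 probes above) and DHT replicate 1 (-0.37, 25 probes above).

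Arrays that share a replicate number can be compared within the number. Those of numbers 1 and 6 lay on 1 slide each. In numbers 3 and 4 the control lay on a different slide, scanned on a different day, from the other arrays. In number 5 it was the flutamide array that lay apart. The part of slide and scan day in these differences was not tested. The same arrays entered the group means that the rule ranked. Their differences are therefore a description, and a share above that of all probes follows in part from the choice. Flutamide minus control had a member median of 0.59 in replicate 3 and 1.1 in replicate 6. Above 0 were 90 and 97 of the 100 probes, against 61.4% and 43.0% of all probes well above background. LIN minus control gave 1.33 in replicate 3, 0.24 in replicate 4 and 1.12 in replicate 6. Above 0 were 86, 74 and 98, against 50.7%, 52.0% and 37.4% of all. Flutamide minus DHT gave 0.75 in replicate 5 and 0.53 in replicate 6. LIN minus DHT gave 0.01 in replicate 4, 0.51 in replicate 5 and 0.67 in replicate 6. DHT minus control gave -0.13 in replicate 1, 0.16 in replicate 4 and 0.44 in replicate 6. In replicate 4 the LIN and DHT arrays lay at positions 2 and 1 of slide 1 and differed by next to nothing. Above 0 were 51 probes, against 51.6% of all. In replicate 6 the DHT array was above control for 86 of the 100 probes, against 39.1% of all. Nearness of DHT to control thus held for the means and not within that number.

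The limma fit of the 4 group means gives the counts that follow, as a description of the choice. Flutamide and LIN arrays together were set against control and DHT arrays together. Of the 100, 7 were called higher at an adjusted p below 0.05, against 0.0761% of the 13146 probes. At an unadjusted p below 0.05, 72 were higher, against 447 of the 13146. The 7 were the 5 probes without overlap, FJU.271.C2 and FJU.728.C8. Against control alone limma called 0 of the 100 with flutamide (0% of all). At an unadjusted p below 0.05, 50 were higher, against 425 over all probes. With LIN limma called 0 (0% of all). At an unadjusted p below 0.05, 44 were higher, against 335 over all probes. These unadjusted counts were unsteady, and so were those over all probes, given in brackets. With LIN the count was 17 (197) without LIN replicate 3 and 28 (237) without control replicate 6. With flutamide it was 4 (16) with spike-in centring. Within slide 1 the only control array was replicate 1. The member median there was 1.19 with flutamide and 1.09 with LIN, against -0.17 and -0.11 over all probes. Within slide 3 the only flutamide array was replicate 6. The member median with flutamide there was 0.94, against -0.09 over all probes. With replicate number as a random block the counts of members called higher were 32 for both compounds together (0.692% of all), 0 for flutamide (0.0304% of all) and 9 for LIN (0.479% of all). With the number as a fixed replicate block they were 0, 0 and 0. At an unadjusted p below 0.05, 71, 55 and 65 were higher, against 770, 956 and 854 over all probes. The member medians were 0.77 for flutamide and 0.76 for LIN. Leaving out LIN replicate 4 gave 27, 0 and 6 called higher, against 93, 0 and 18 over all probes. Leaving out control replicate 3 gave 16, 0 and 0, against 28, 0 and 0. The count of 7 for both compounds together depended on single arrays. It was 7 without flutamide replicate 3 (14 over all probes) and 2 without LIN replicate 6 (2). It was 4 without LIN replicate 3 (4) or flutamide replicate 6 (10). It was 1 without control replicate 4 (1) or DHT replicate 5 (3), and 0 without any 1 of the other 8 arrays (0 to 1).

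The rule was then applied again without certain arrays, and the new 100 probes were read in the arrays left out, of which only the background flags had entered the choice. The values were taken against the control mean of the arrays that remained. The rule used that mean, so an array left out could read above it without differing from a control, and DHT replicate 5, left out, read 0.73 where DHT minus control was 0.00 in the rest. Single medians are therefore given only to set the arrays left out side by side. Without 1 array at a time, between 57 and 87 of the 100 were chosen again. The flutamide array left out gave medians of 0.67 to 1.02 above the control mean, with 80 to 95 probes above it. LIN replicates 3, 5 and 6 gave 1.23, 0.63 and 0.62. LIN replicate 4, when left out, gave -0.01, with 49 of 100 probes above the control mean. DHT arrays left out gave 0.13 to 0.73 and control arrays -0.38 to 0.68, the highest being control replicate 3. Read this way, control replicate 3 and DHT replicate 5 (0.73) stood above the lowest flutamide array and above LIN replicates 4, 5 and 6.

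Without all arrays of a replicate number, 46, 67, 65 and 67 of the 100 were chosen again for the numbers 3, 4, 5 and 6. In replicate 3, flutamide gave 0.72, LIN 1.06 and the control 0.39. In replicate 4, LIN gave 0.46, DHT 0.43 and the control 0.14. In replicate 5, flutamide gave 0.98, LIN 0.84 and DHT 0.36. In replicate 6, flutamide gave 0.67, LIN 0.83, DHT 0.20 and the control -0.37. Differences between 2 arrays left out together are free of that control mean. They are not free of slide and scan day where the 2 arrays lay on different slides. Flutamide minus control had a median of 0.24 over the new 100 in replicate 3 and 1.0 in replicate 6. Above 0 were 67 and 95 probes, against 61.4% and 43.0% of all probes well above background. LIN minus control gave 0.51, 0.28 and 1.14 in replicates 3, 4 and 6. Above 0 were 64, 79 and 96, against 50.7%, 52.0% and 37.4% of all. DHT minus control gave 0.21 in replicate 4 and 0.48 in replicate 6, with 75 and 89 above 0 (48.4% and 39.1% of all). LIN minus DHT gave -0.01 in replicate 4, 0.46 in replicate 5 and 0.55 in replicate 6. Flutamide minus DHT gave 0.62 in replicate 5 and 0.31 in replicate 6. Over all probes these medians lay between -0.17 and 0.10. In the single values above the flutamide and LIN arrays were the highest of each number left out, with LIN replicate 4 next to DHT replicate 4. In numbers 3 and 6 the single values also followed the order of the slide positions. In number 4 the control and DHT arrays both lay at position 1 and LIN at position 2. In number 5 flutamide, at position 3, stood above LIN, at position 4. The part of slide position was not tested.

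Some contigs have more than 1 probe on the array. Of the 100 probes, 9 have another probe with the same contig name, and 0 of those 9 were among the 100. The suffix that follows the contig name in each probe's label was not compared. Only 2 of the 9 were well above background on all arrays. FJU.5512.C1 (probe UF_Ppr_AF_114600) had group means of -6.29, -6.24, -4.71 and -5.20 in control, DHT, flutamide and LIN. Its other probe, UF_Ppr_AM_119541, had -5.13 ± 0.44, -5.60 ± 0.25, -5.92 ± 0.59 and -5.81 ± 0.42 (SD, n = 4). FJU.2932.C1 (probe UF_Ppr_AF_103417) had -1.77, -1.65, -0.80 and -1.08, and its other probe, UF_Ppr_AM_119442, had -5.17 ± 0.26, -5.46 ± 0.18, -4.98 ± 0.68 and -5.43 ± 0.22 (SD, n = 4). Neither of these other probes was higher than control with both compounds. The other probe of FJU.5512.C1 ran opposite to the chosen one, with differences from control of -0.79 with flutamide and -0.69 with LIN. Contigs that share the first part of their name were also looked up: 13 of the 100 have 24 such probes well above background. These had a median difference from control of 0.00 with flutamide and -0.13 with LIN. Over 0.5 with both compounds were 2 of them, FJU.728.C7, at 1.16 and 2.24, and FJU.5477.C1, at 1.15 and 0.97. In those the DHT difference was 0.73 and 0.43, beyond the limit of 0.3.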

How the data were processed

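Total RNA was measured on 16 one-colour Agilent arrays. Per the file headers, the deposited scanner files come from Agilent Feature Extraction 10.7.1.1 and hold a background-subtracted processed intensity per spot, not scaled between arrays, with deposited flags of 0 or 1 (a category, not a score) for spots well above background and for outliers. A value table of the same 16 arrays, in log2 units, was deposited by the authors too, with a normalization not given in the sources. Its columns correlated with their own array at 0.9995 or more, its column medians were 7.72 to 7.77, and its centring constant remains unknown. The value table was used as an alternative only.

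Signals were scaled by each array's 75th percentile over 15208 probes and log2 transformed with pandas 2.3.3 and numpy 2.4.6. Outlier spots (185 over all arrays) were left out of the fits, and 0 probe spots were saturated. For the fits 13146 probes were kept, well above background on at least 3 of 4 arrays of at least 1 group. Groups were fitted together with limma 3.58.1 in R 4.3.3, with two-sided moderated tests and Benjamini-Hochberg adjustment over all probes kept. The code was first run on simulated data in which arrays varied independently. Those runs do not cover the correlation between arrays of 1 replicate number, which was 0.63 in the random replicate block fit. Precision is limited by the number of arrays.

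The members and lists were chosen with earlier results of these data known. The probes named are the 6 with the largest separation, those at the limit of the choice, those at the extremes of level, spread and flutamide minus LIN, and up to 6 members called in any fit, with the exceptions stated. Marker and pathway lists could not be read, since no probe has a gene name.

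Groups share replicate numbers in the titles. All 16 pairs of arrays with 1 number correlated in their deviations from the group means (r from 0.348 to 0.783). Correlations of pairs with different numbers are not given, and many pairs with 1 number also share a slide. The reported fit of the group means did not include the number, so its counts and intervals are unpaired. The numbers serve as a pairing only in the replicate block alternatives and in the differences between arrays that share a number. They were also tested as a factor and left out in turn. What a number stands for is not in the labels. Alternatives changed the scaling, background correction, filter, prior, blocks for slide, scan day and replicate number, and left out each array in turn.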

Additional observations from a re-analysis of the deposited data

Results flagged for a closer look

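The levels of the 22 probes named by the rule, and the array medians of the 100, gave 92 groups of 4 arrays that were looked at for an array far from the other 3, by Dixon's test of the gap against the group's range. Chance puts about 5% of groups past that limit, and 8 were found. LIN replicate 4 was far below the other LIN arrays for 3 probes. It read -6.32 for FJU.12836.C1, -5.52 for FJU.13414.C1 and -4.92 for FJU.13406.C1, the last of which lies just outside the 100. Among the controls, replicate 1 read -1.39 for FJU.666.C3, far below the rest. Control replicate 6 read 1.66 for FJU.728.C8, below the other controls at 2.04, 2.03 and 2.04. Control replicate 4 read -0.42 for FJU.5477.C2, above the other controls. With DHT, replicate 1 read -5.30 for FJU.4704.C2 and replicate 4 read -7.11 for gi_73491720, each below the other DHT arrays.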

How the results depend on the processing

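Over the alternatives, 212 of 255 summary values stayed within 1.5 times the reported count or within the spread between replicates of the reported value. The 212 include counts that were 0 in the reported fit and stayed at 0. The count of 7 that follows moved beyond that limit in most alternatives. The count of members called higher with flutamide and LIN arrays together was reported as 7, with 10 over all probes. Counts over all probes follow in brackets. The member count was 15 (35) after scaling to the median, 11 (28) after quantile normalization and 0 (0) after spike-in centring. It was 15 (30) after normexp and quantile normalization and 11 (29) from the authors' table. With probes well above background on all arrays it was 11 (16). It was 17 (46) with slide and 16 (44) with scan day as a fixed block, 0 (0) within slide 1 and 0 (0) within slide 3. With the number as a fixed replicate block it was 0 (0), and as a random replicate block 32 (91). With 1 array left out it was 0 to 27 (0 to 93). Within a slide fewer arrays are tested. The only control array on slide 1 is replicate 1, and the only flutamide array on slide 3 is replicate 6. Otherwise the cause was not tested. Members called higher with LIN against control were reported as 0. They numbered 9 (63) with the random replicate block and 0 to 6 (0 to 18) with 1 array left out. With flutamide and 1 array left out they numbered 0 to 1 (0 to 1). Slide 2 holds 2 arrays and was not fitted alone.

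Against the reported scaling, spike-in centring moved the median difference of all probes from control by -0.51 with flutamide, 0.03 with LIN and -0.38 with DHT, and median scaling moved it by 0.16, 0.19 and 0.04. With spike-in centring the member medians were 0.46, 0.92 and -0.29. Relative to all probes they stood at 1.05, 0.99 and 0.11. These equal the values in the reported scaling by construction, since both scalings shift all probes of an array alike. The flutamide median was 1.19 within slide 1, against control replicate 1 alone, and 0.77 with the fixed replicate block. The DHT median was 0.39 within slide 3. Applied again, the rule kept 37 of the 100 with spike-in centring, 50 with the fixed replicate block, and 46 to 87 with arrays left out. Of 1040 values of the named members under alternatives, 83 moved by more than the replicate SD and 6 lay below control. Members called for replicate number were 63 in the reported fit, against 51.6% of all probes with a test, and 54 to 69 with 1 array left out. The shares over all probes with 1 array left out are not given, so nothing is read from that range.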
